A study of Mus musculus with 12 samples.

Results

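The comparison of XYF with XXF thymus asked which autosomal genes differ in mRNA between pups that share ovaries and differ in their sex chromosomes. It took the 3 XYF arrays (array numbers 4, 8 and 12) and the 3 XXF arrays (3, 7 and 11), and kept each autosomal probe set with 1 gene symbol and a mean signal of 200 or more over these 6 arrays. The rule kept 15094 of the 35556 probe sets on the array, standing for 13811 of the 19938 genes with a probe set of their own, of which 735 had several probe sets that share their source. The dimmest probe set kept had a mean signal of 200.06, and the brightest autosomal probe set left out had 199.92. Signal is a linear intensity with no detection call. As a reference for dim signals, 1035 probe sets of olfactory receptors were used, whose 95th percentile was 300.2, and 12148 of the 15094 members lay at or above it.

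All 6 arrays were from pups of the FCG mouse model, named for its 4 genotypes, on a C57BL/6J background and at postnatal day 7. In this model the testis-determining gene Sry is missing from the Y chromosome and sits on an autosome as a transgene, which lets testes or ovaries form with either set of sex chromosomes. XYF pups carried the Y chromosome without Sry, XXF pups carried a pair of X chromosomes, and neither carried the transgene, so both had ovaries. The other arrays were from gonadal males that carried the transgene, 4 from XXM and 2 from XYM, and their difference is given beside that of the females. The tissue was epithelium and stroma left after thymocytes had been washed out. The sources do not say whether an array held RNA of a single pup, so the p-values measure only the spread between arrays, which may be technical.

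XX and XY cells differ in the dose of several regulators that could reach autosomal genes. Xist coats and silences an X chromosome in XX cells. Genes such as Kdm5c, Kdm6a and Eif2s3x escape that silencing, and each has a Y-linked partner (Kdm5d, Uty and Eif2s3y); they encode histone demethylases and a translation initiation factor. In the thymus, cortical epithelium supports the positive selection of thymocytes, and medullary epithelium displays antigens of other tissues under the control of Aire, which removes self-reactive cells.

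The array medians of the 6 female arrays ran from 327.8 to 345.5, and log2 values correlated between any pair of them at 0.975 to 0.993 over the members. The first principal component over the members held 40.0% of the variance of the 12 arrays and followed the array numbers, with scores of -12.1 to -6.77 on arrays 1 to 4, -5.35 to 3.25 on arrays 5 to 8 and 5.96 to 19.0 on arrays 9 to 12. Each of these array sets held 1 XXF and 1 XYF array, so each gene also has 3 differences within a set, given below in the order of the sets. The male arrays were not balanced in this way, as arrays 5 to 8 held XXM arrays but no XYM array. Male differences given below are without a block unless stated. Nothing in the sources says what an array set is. Washing did not remove thymocyte RNA: Cd8a, the coreceptor of cytotoxic T cells, had signals of 4881 to 5813 on the XXF arrays. The arrays carried the sex chromosomes of their labels. Xist lay between 8505 and 9884 on XXF arrays and between 44.5 and 79.9 on XYF arrays, and Eif2s3y lay between 42.2 and 46.3 on XXF arrays and between 12115 and 13268 on XYF arrays.

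No autosomal gene passed the test between XYF and XXF. In limma with adjustment over all 35556 probe sets, 0 of the 15094 members had an adjusted p under 0.05, and the lowest was 1.00. Over all probe sets, 0.0112% were called higher in XYF and 0.00562% lower. These 6 were Eif2s3y, Kdm5d, Uty and Xist and a pair of probe sets with no symbol. At an unadjusted p under 0.05 in limma there were 41 members, 0.272%, with 22 higher and 19 lower, against 0.951% of all probe sets. With the array set as a block, 0 members passed and 382, or 2.53%, had an unadjusted p under 0.05, against 3.27% of all probe sets; the lowest adjusted p, of Cacna1e, was 0.333. The methods' two-way model likewise called 0 members.

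The differences themselves were small. The median log2 difference of the members, XYF minus XXF, was 0.0029 and the median of its absolute value was 0.048. Only 37 members were 1.2-fold or more higher and 46 were 1.2-fold or more lower. The 95% interval of a member's log2 difference reached 0.23 to either side at the median. It reached 0.17 and 0.37 at the 5th and 95th percentiles of members. These widths hold for a single gene without adjustment. With 3 arrays a group, differences larger than these widths could also fail after adjustment over all probe sets. Cacna1e, at -0.48 with an interval of -0.70 to -0.25, did not pass. The 3 XYF arrays all lay above the 3 XXF arrays for 268 members (1.78%, against 2.04% of all probe sets) and all below them for 222 (1.47%, against 1.71%). The difference had the same sign in all 3 array sets for 2251 members that were higher (14.9%, against 13.5% of all probe sets) and 2047 that were lower (13.6%, against 12.6%). The shares of members thus lay near those of all probe sets in each of these counts. Across members, the differences within array sets correlated at 0.18 between sets 1 and 2, -0.04 between sets 1 and 3, and 0.21 between sets 2 and 3; members share their arrays and are not independent.

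On the X chromosome, a run of 10 named neighbours from Tmsb4x to Mid1 was higher in XYF than the rest. Its median log2 difference was 0.51 in females and 0.54 in males, and 8 of the 10 had a log2 difference of 0.3 or more. The count of 8 had no signal limit and includes Tlr8, at a mean signal of 121. The other 729 X genes had a median of -0.018. Among them only genes with a signal of 200 or more were counted, and 1 had a log2 difference of 0.3 or more. The counts are thus not on the same basis. Tlr7, a sensor of single-stranded RNA that drives interferon production, had signals of 246, 221 and 224 on the XXF arrays and of 419, 331 and 375 on the XYF arrays. With the array set as a block, Tlr7, Msl3 and Hccs of this run passed the limma threshold. A copy of distal X genes on the Y chromosome has been described in FCG stocks; whether these pups carried it was not tested, and its part in the autosomal values below was not tested.

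**Figure D1:**
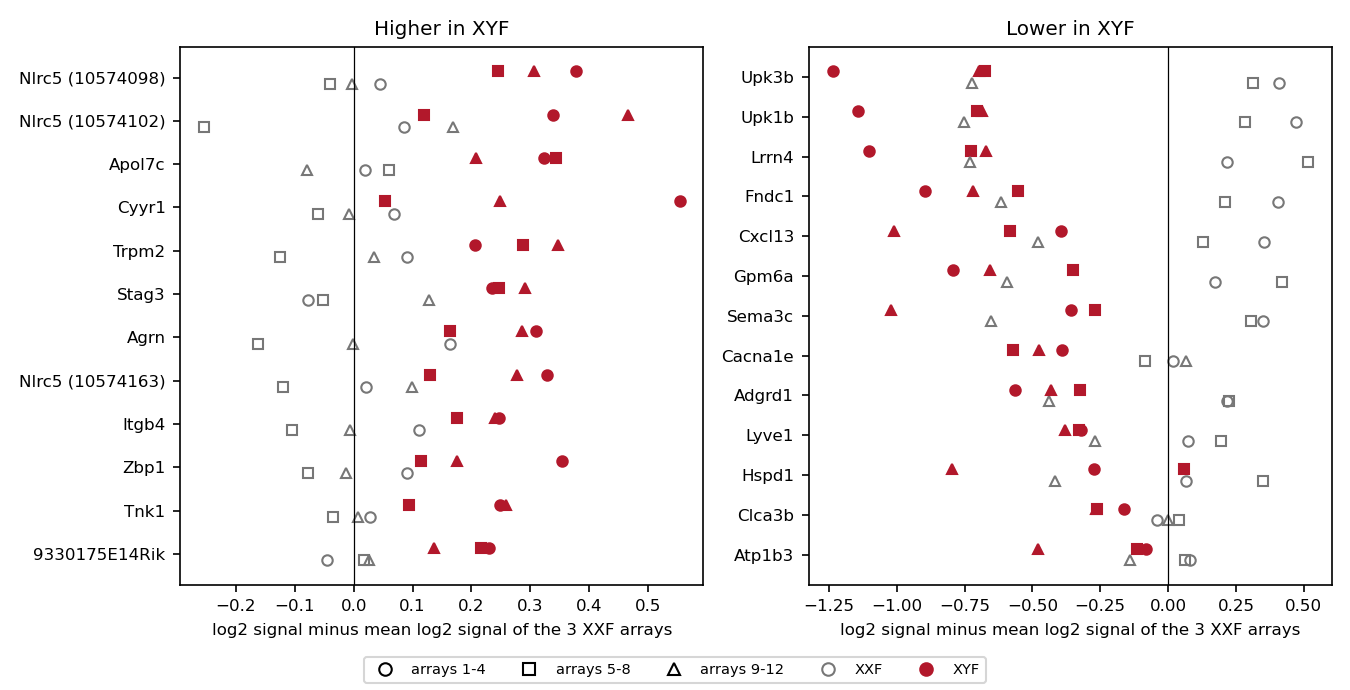
Log2 signal of the autosomal probe sets with the lowest p in either direction, as the difference from the mean of the 3 XXF arrays; each point is 1 array, open grey for XXF and filled red for XYF, with a shape for each array set. The genes at left differ by 0.19 to 0.31, with the XYF arrays above all XXF arrays except in Cyyr1 and in Nlrc5 probe set 10574102, which overlap. Several genes at right have 1 XXF array (array 11) among the XYF arrays.

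Among the genes that were higher in XYF, Apol7c had the lowest p. This member of the apolipoprotein L family had signals of 202, 208 and 189 on the XXF arrays and 249.6, 253 and 231 on the XYF arrays. The groups did not overlap, and the differences within the array sets were 0.30, 0.28 and 0.29 on the log2 scale. The log2 difference was 0.29 (standard error 0.08), a 1.22-fold difference, which did not pass in limma (adjusted p = 1.00, and 0.783 with the array set as a block). Its mean signal lay below the olfactory receptor reference in both groups, and its XXF mean of 199.8 was under the signal limit of 200. In gonadal males the XYM minus XXM difference was 0.17.

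Several other genes with low p had XYF arrays above all XXF arrays. Stag3, a subunit of the meiotic cohesin, had signals of 491, 499.9 and 566 in XXF and 609, 615 and 634 in XYF. Trpm2, a cation channel opened by oxidative stress, had signals of 518, 446 and 498 in XXF and 562, 594 and 619 in XYF. Itgb4, the integrin subunit of hemidesmosomes in epithelium, had signals of 1204, 1037 and 1110 in XXF and 1323, 1258 and 1317 in XYF. All 3 were separated by less than 1.3-fold, and none passed (limma, adjusted p = 1.00 for each). Agrn, a matrix proteoglycan, had a log2 difference of 0.25 (standard error 0.10), Tnk1, a tyrosine kinase, of 0.20 (standard error 0.08) and 9330175E14Rik of 0.19 (standard error 0.07), again without overlap of the groups. Cyyr1 differed by 0.28 (standard error 0.11), with 794 on XYF array 8 below the 802 of XXF array 3. The males' differences for these genes were above 0 too, from 0.06 for Stag3 to 0.33 for 9330175E14Rik.

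Nlrc5, the transactivator of MHC class I genes, had 3 of its probe sets among the higher genes named by p. The one of lowest p (10574098) had signals of 1001, 944 and 969 in XXF and 1262, 1151 and 1201 in XYF. The log2 difference was 0.31 (standard error 0.09), or 1.24-fold, with 0.33, 0.29 and 0.31 within the array sets. All 19 Nlrc5 probe sets among the members lay above 0, from 0.01 to 0.31 with a median of 0.20, and 14 of them were higher in all 3 array sets. In males all 19 lay above 0 as well, with a median of 0.32. The brightest of the 19 was not among those that differed most: its signals were 1692, 1715 and 2003 in XXF and 1736, 1795 and 2077 in XYF. Probe sets of a gene share their RNA and count as 1 gene. None passed in limma (adjusted p = 1.00 for each).

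Dock6 was chosen after its values were seen, because all of its 15 probe sets lay above 0 in females. Their log2 differences ran from 0.14 to 0.32 with a median of 0.22, and all 15 were higher in each array set. In limma 0 of the 15 had an unadjusted p under 0.05, and 9 did with the array set as a block. Only 2 had every XYF array above every XXF array. A shared sign alone also occurred in other genes with many probe sets. All 9 of Dennd4a and all 8 of Nup210l lay above 0, against 0 of 11 for Cdc5l. However, only 2 of Dennd4a and 0 of Nup210l were higher in each array set. In males 11 of the 15 lay above 0, between -0.09 and 0.13 with a median of 0.04.

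**Figure D2:**
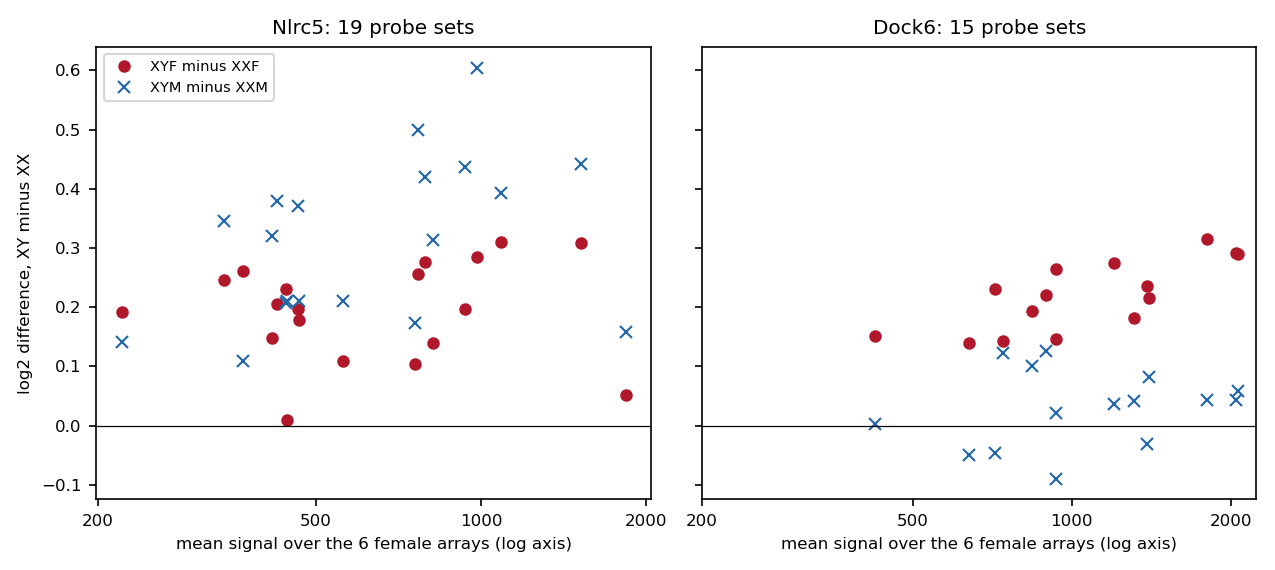
Log2 difference of each Nlrc5 and Dock6 probe set against its mean signal over the 6 female arrays (log axis); circles are XYF minus XXF and crosses are XYM minus XXM. All circles lie above 0 for both genes, while the crosses lie between 0.11 and 0.60 for Nlrc5 and around 0 for Dock6.

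Among the genes that were lower in XYF, Cacna1e had the lowest p of all members. This gene of a voltage-gated calcium channel subunit had signals of 1341, 1249 and 1387 in XXF and 1010, 892 and 953 in XYF. Every XYF array lay below every XXF array, and the differences within the array sets were -0.41, -0.49 and -0.54. The log2 difference was -0.48 (standard error 0.10; 95% interval -0.70 to -0.25), which makes the XXF signal 1.39-fold that of XYF. It did not pass in limma (adjusted p = 1.00, and 0.333 with the array set as a block). In males the difference was -0.22, with 1238 ± 133 (SD, n = 4) in XXM and 1058 ± 71.5 (SD, n = 2) in XYM.

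Cxcl13, the chemokine that draws B cells, had signals of 766, 655 and 430 in XXF and 456, 400 and 298 in XYF. The groups overlapped, but XYF was lower in each array set, by -0.75, -0.71 and -0.53 on the log2 scale. Sema3c, a guidance semaphorin, behaved the same way, with 510, 495 and 255 in XXF and 313, 332 and 197 in XYF. Lyve1, a hyaluronan receptor of lymphatic endothelium and some macrophages, had signals of 576, 626 and 454 in XXF and 438, 435 and 420 in XYF, without overlap. Clca3b, of the family of chloride channel regulators, had signals of 263, 277 and 270 in XXF and 241, 225 and 224 in XYF, also without overlap. Its mean signal of 250 lay below the olfactory receptor reference. Hspd1, a mitochondrial chaperonin with pseudogenes that could share its probes, and Atp1b3, a subunit of the sodium pump, were lower in each array set with groups that overlapped. None of these passed in limma (adjusted p = 1.00 for each).

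**Figure D3:**
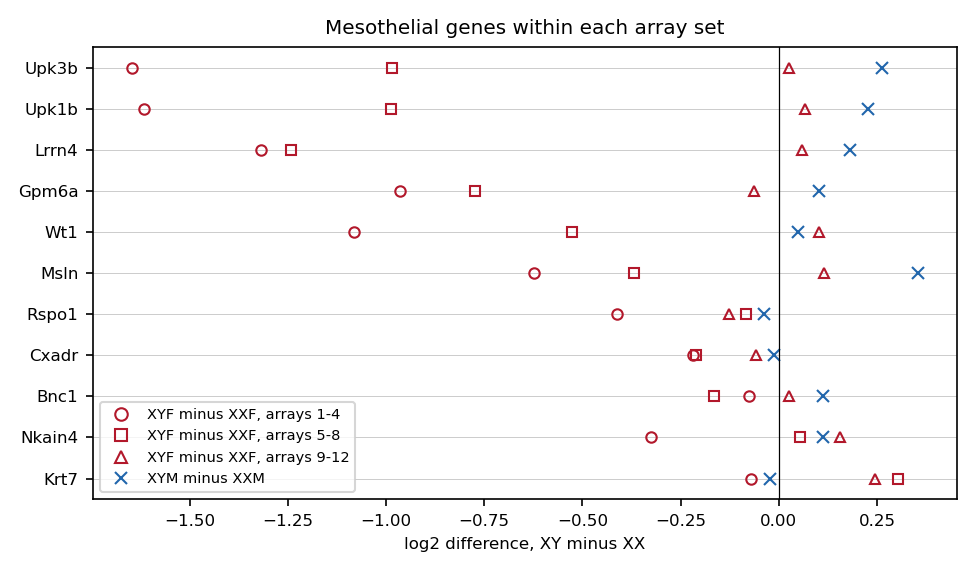
Log2 differences of 11 mesothelial genes within each array set (XYF minus XXF, red) and in gonadal males (crosses). Upk3b lies at -1.65 and -0.99 in arrays 1 to 4 and 5 to 8 but at 0.03 in arrays 9 to 12.

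Several of the lowest genes are known from mesothelium, the cell layer that lines body cavities and the surface of organs. Upk3b, a uroplakin, had signals of 803, 751 and 367 in XXF and 257, 379 and 373 in XYF. XXF arrays 3 and 7 were thus high, and XXF array 11 lay within the range of the XYF arrays. Upk1b, another uroplakin, had signals of 372, 326 and 159 in XXF and 121, 164 and 167 in XYF. Lrrn4 (401, 494 and 208 against 161, 209 and 217) and Gpm6a (279, 331 and 164 against 143, 193 and 157) showed the same arrangement. Fndc1 and Adgrd1, named by their p and not as mesothelial genes, had log2 differences of -0.72 and -0.44. In males these 2 differed by -0.42 and -0.11, whereas the male differences of Upk3b, Upk1b, Lrrn4 and Gpm6a were above 0. Wt1, the transcription factor of mesothelium, had signals of 451, 379 and 273 in XXF and 213, 263 and 293 in XYF.

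The mesothelial list was drawn up after these values were seen, so it supports nothing beyond them. Of its 15 genes 11 were members, 10 of which lay below 0, with a median of -0.29. Of the 11, 7 had a mean signal at or above the olfactory receptor reference. Any member that passed the signal limit only through XXF had to lie below 0, so the rule partly fixed this count. The summed signal of the list was 6017 and 5742 on XXF arrays 3 and 7, 4170 on XXF array 11, and 4049 to 4683 on the XYF arrays. Within arrays 9 to 12 the median was 0.06. In males the median was 0.11, with sums of 4155 to 4859 in XXM and 4220 to 5440 in XYM. The difference between females and males for Upk3b, -1.13 on the log2 scale, did not pass in limma (adjusted p = 1.00). In a bulk sample fewer cells of a type and less RNA per cell cannot be told apart.

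Genes induced by interferon lay above 0 as a group. Interferons signal through receptors to transcription factors that bind interferon-stimulated response elements, and the genes they switch on detect or block viruses. Of 24 listed genes 20 were members, and all 20 had a log2 difference above 0, from 0.05 to 0.27 with a median of 0.13, against 51.7% above 0 among all members. In gonadal males all 20 lay above 0 too, with a median of 0.22. None passed in limma in either sex; 1 of the 20 in females (Zbp1) had an unadjusted p under 0.05, against 0.272% of all members, and 7 did with the array set as a block, against 2.53% of all members. Within the array sets 17, 20 and 20 of the 20 lay above 0, with medians of 0.08, 0.12 and 0.15. Without XXF array 11 the median was 0.08. The list had been described on these arrays before, so its direction is not independent evidence.

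Zbp1, a sensor of Z-form nucleic acids, had signals of 817, 727 and 760 in XXF and 980, 830 and 867 in XYF. Irf7, the transcription factor that amplifies type I interferon, had 598, 532 and 549.6 in XXF and 651, 614 and 699 in XYF. Mx2, an antiviral GTPase, had 245, 198 and 236 in XXF and 263, 255 and 253 in XYF, and Xaf1, a regulator of apoptosis, had 950, 753 and 898 in XXF and 998, 954 and 975 in XYF. In these 4 of the 20 genes the XYF arrays lay above all XXF arrays, as in 1.78% of all members, by 0.18 to 0.23 on the log2 scale. Of the 4, Mx2 lay below the olfactory receptor reference. Gbp3, a guanylate-binding protein, had the largest difference of the list, 0.27 (standard error 0.14), with 749, 584 and 615 in XXF and 811, 819.5 and 710.4 in XYF. Mx1 had 370, 251 and 312 in XXF and 454, 310 and 347 in XYF. The smallest differences were those of Ifit1 (0.05) and Oas1a (0.06), with groups that overlapped. Cxcl10, the chemokine that draws activated T cells, had 2060, 1950 and 1466 in XXF and 2141, 1989 and 1927 in XYF, a difference of 0.16 (standard error 0.23).

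**Figure D4:**
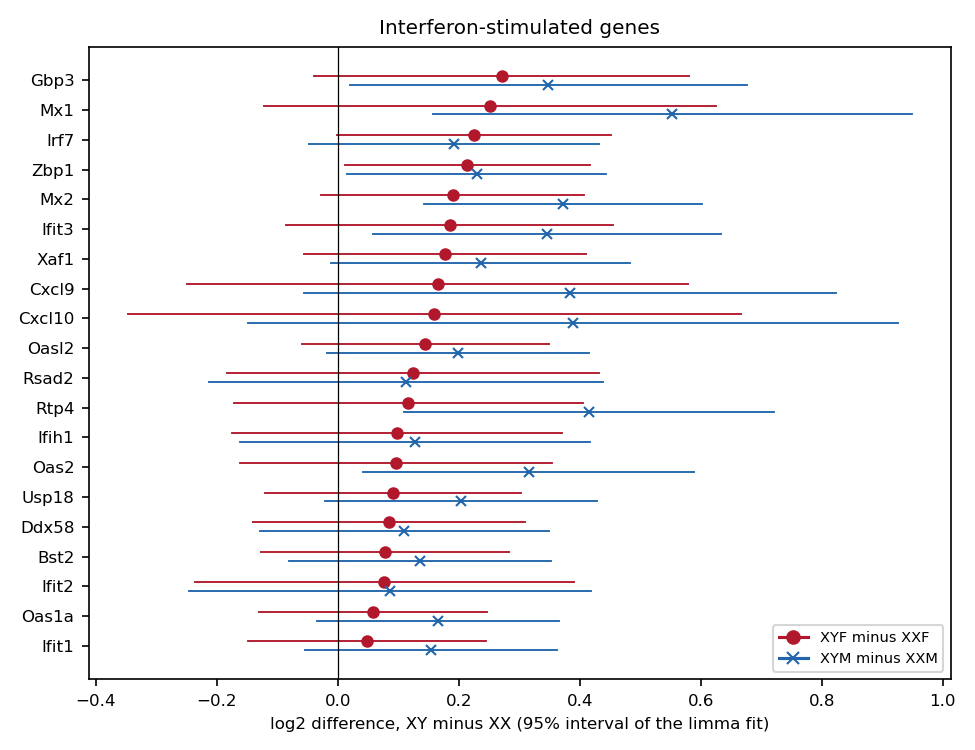
Log2 differences of 20 interferon-stimulated genes with 95% intervals of the limma fit, XYF minus XXF (circles) and XYM minus XXM (crosses). All 40 points lie to the right of 0, from 0.05 to 0.27 in females and from 0.09 to 0.55 in males, and most female intervals include 0.

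The interferon response element can be read as the letters GAAANNGAAA. RefSeq sequence of the 250 bases before a gene's start (GRCm38.p6) was searched for these letters on both strands. Of the 20 interferon-stimulated members 14 had an entry, and 7 of these 14 held a match. The share was 2.98% of all 32851 promoters and 3.16% of the 10880 autosomal members with an entry. Of the genes named by p, 1 of the 7 higher ones with an entry (Apol7c) and 1 of the 10 lower ones (Gpm6a) held a match. Stretches of 100 bases that hold the matches are given 5′ to 3′ on the gene's strand, with the matched letters (on either strand, overlapping matches joined) in capitals. They are shown because these genes carry the interferon pattern or, for Apol7c, head the list of higher genes.
Gbp3, chr3:142559944-142560043, plus strand: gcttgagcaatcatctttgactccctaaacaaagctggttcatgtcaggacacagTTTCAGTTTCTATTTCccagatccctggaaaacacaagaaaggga
Ifit3, chr19:34583345-34583444, plus strand: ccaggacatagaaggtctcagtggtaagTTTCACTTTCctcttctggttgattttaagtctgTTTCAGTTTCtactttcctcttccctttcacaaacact
Cxcl10, chr5:92349040-92349139, minus strand: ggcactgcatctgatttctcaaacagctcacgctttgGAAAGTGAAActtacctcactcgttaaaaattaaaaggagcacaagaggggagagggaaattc
Apol7c, chr15:77533316-77533415, minus strand: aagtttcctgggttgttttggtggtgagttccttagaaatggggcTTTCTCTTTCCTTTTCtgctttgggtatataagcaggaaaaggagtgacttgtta

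In Gbp3 and Apol7c a pair of overlapping matches lies within 60 bases before the start, whereas in Cxcl10 the match lies 213 to 204 bases before it. A match is only a run of letters in this window. Zbp1 and Nlrc5 had no entry in the table. Values of genes with and without a match were not compared. Both Gbp3, with the largest difference of the list, and Ifit1, with the smallest, held a match.

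The GTPases that interferon induces were listed after their values were seen. Of the 8 members all lay above 0, with a median of 0.17 in females and 0.26 in males. Gm4841 (260, 269 and 274 in XXF, 291, 315 and 307 in XYF) and Gm12250 (277, 252 and 227 against 298, 317 and 277) did not overlap between groups. Among all members, 1.78% had every XYF array above every XXF array. Of the 8 GTPases 6 had a mean signal at or above the olfactory receptor reference, but Gm4841 and Gm12250 lay below it. Iigp1 had 862, 799 and 661 in XXF and 1008, 1098 and 816 in XYF. MHC class I and peptide loading genes, also listed after the values were seen, were above 0 in 14 of 16, with a median of 0.040. The class I heavy chain genes H2-K1, H2-D1 and H2-T23 had no probe set with their symbol alone and are not among the 16. B2m, the light chain of class I, had a difference of 0.03, and Tap1, the peptide transporter, of 0.15.

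Endothelial genes lay above 0 throughout their list. All 16 members did, from 0.05 to 0.24, with a median of 0.14 in females and 0.18 in males. Sox18, a transcription factor of vessels, had signals of 629, 568 and 576 in XXF and 804, 591 and 714 in XYF. Plvap, of the fenestral diaphragm, had 634, 542 and 542 in XXF and 858, 562 and 630 in XYF. Pecam1, present on all endothelium, had 2342, 1947 and 2313 in XXF and 2729, 2095 and 2221 in XYF, a difference of 0.09 (standard error 0.11). XYF array 4 was the highest array for each of these genes. The medians within the array sets were 0.26, 0.05 and 0.09, and without XYF array 4 the median was 0.019. The summed signal of the list was 13951 to 16316 in XXF and 14617 to 19291 in XYF. None passed in limma, and with the array set as a block 2 of the 16 (Plvap and Sox18) had an unadjusted p under 0.05, against 2.53% of all members.

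**Figure D5:**
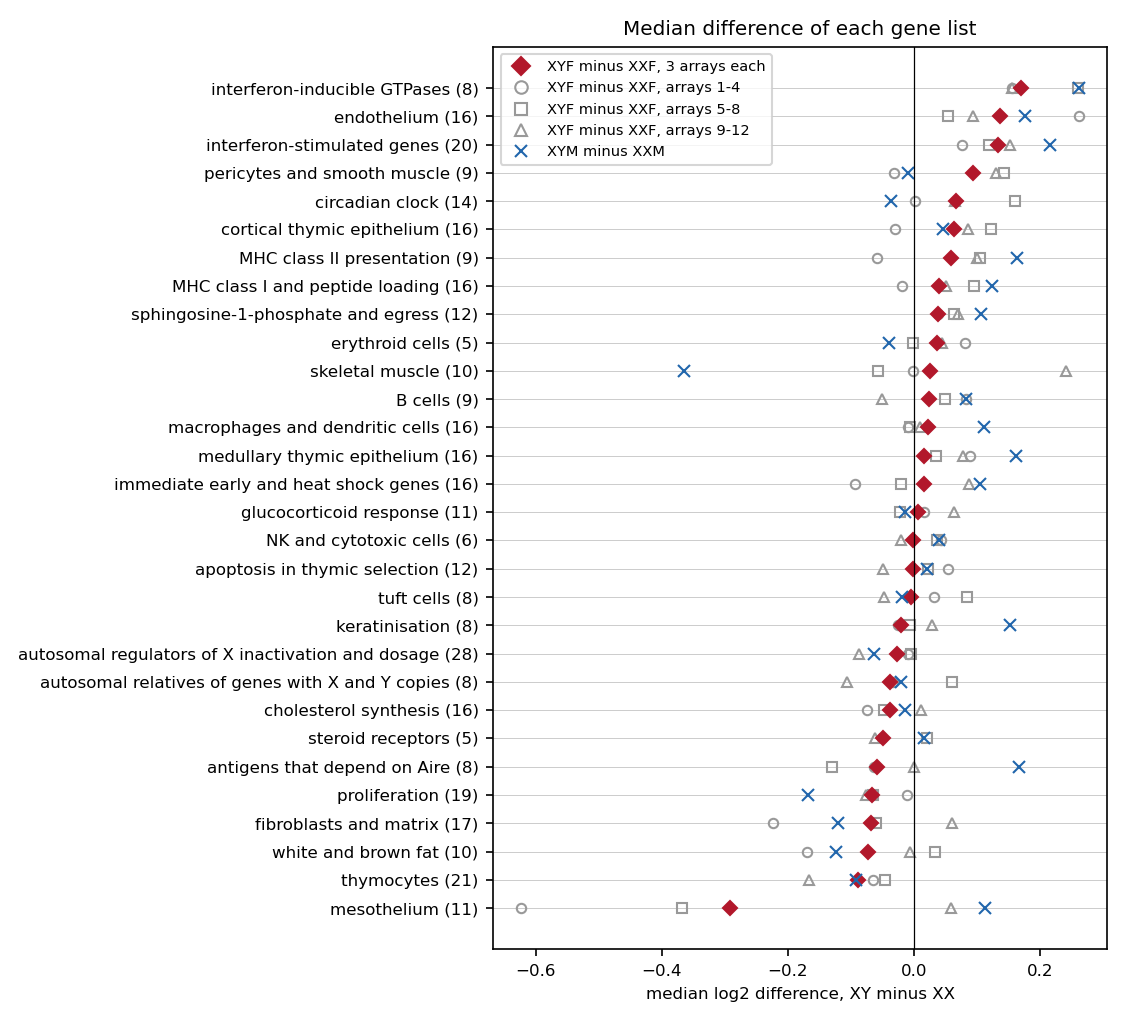
Median log2 difference of each gene list, with its number of members: diamonds are XYF minus XXF over 3 arrays each, open grey points the same within an array set, and crosses XYM minus XXM. Interferon-stimulated genes lie at 0.13 and thymocyte genes at -0.09, with all 3 array sets on the same side of 0 for both.

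Genes of thymocytes, the developing T cells, lay below 0. Of 21 members 19 did, with a median of -0.09 in females and -0.09 in males, where all 21 were below 0. Rag1, which cuts antigen receptor genes for recombination, had signals of 5495, 5470 and 5565 in XXF and 4826, 5300 and 4785 in XYF, without overlap. Cd3d, of the T cell receptor complex, had 1272.5, 1282 and 1301 in XXF and 1224, 1197 and 1145 in XYF, also without overlap. Dntt, the polymerase that adds bases at receptor joints, had 1968, 1906 and 2353 in XXF and 1614, 1807 and 1945 in XYF. Cd8b1 (-0.08) and Satb1 (-0.04) were the brightest of the list. The summed signal was 70544 to 76342 in XXF and 67239 to 69299 in XYF, so that the arrays did not overlap. None passed in limma. Their part in the values of the other lists was not tested.

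Genes of proliferation, which in this tissue are shared with dividing thymocytes, were below 0 in 14 of 19 members, with a median of -0.066 in females and -0.17 in males. Ccnb2, a mitotic cyclin, had signals of 2403, 2800 and 2271 in XXF and 2342, 2382 and 1970 in XYF. Mki67 had 5109, 5416 and 5041 in XXF and 5069, 5142 and 4602 in XYF. The sums of the list overlapped, at 37090 to 42199 in XXF and 34616 to 39871 in XYF. None passed in limma.

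Genes of thymic epithelium differed little. Of 16 cortical members 13 lay above 0, with a median of 0.063, but within arrays 1 to 4 the median was -0.030. Psmb11, the proteasome subunit found only in cortical epithelium, had signals of 1575, 1563 and 1431 in XXF and 1598, 1768 and 1687 in XYF. The groups did not overlap, with a difference of 0.15 (standard error 0.08). Prss16, a serine protease of positive selection, had 8780, 8510 and 8361 in XXF and 8987, 9101 and 8799 in XYF, a difference of 0.07. Foxn1, the master regulator of thymic epithelium, had 1427, 1265 and 1374 in XXF and 1342, 1463 and 1594 in XYF. Ccl25, the chemokine that recruits progenitors, had a difference of 0.00 (standard error 0.11).

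Of 16 medullary members 10 lay above 0, with a median of 0.016 in females and 0.16 in males. Aire had signals of 1078, 924 and 1057 in XXF and 1330, 1009 and 1201 in XYF. XYF was higher in each array set, by 0.30, 0.13 and 0.18, and the groups overlapped; the log2 difference was 0.20 (standard error 0.12), which did not pass in limma (adjusted p = 1.00), and in males it was 0.34. Relb, an NF-kappa B subunit needed for medullary epithelium, had 472, 371 and 448 in XXF and 522, 429 and 532 in XYF. Cd40, a receptor for T cell help, had 1006, 984 and 989 in XXF and 1128, 1073 and 1065 in XYF, without overlap. Fezf2, the other regulator of tissue antigens, had a difference of -0.03 (standard error 0.11), and Krt5 of 0.01 (standard error 0.14). Of 8 members among antigens that depend on Aire, 2 lay above 0 in females (median -0.058) and 7 in males (median 0.17). Reg3g, a secreted lectin of the gut, had 614, 604 and 498 in XXF and 500, 409 and 458 in XYF, a difference of -0.33, and Ins2, insulin, had 276, 322 and 293 in XXF and 267, 293 and 294 in XYF. Of these 8 antigens 4 had a mean signal above the olfactory receptor reference, from 411 for Tff3 to 654 for Csn2, and 4 lay below it. Tuft cell genes were above 0 in 4 of 8, with a median of -0.005. Keratinisation genes were above 0 in 2 of 8 in females (median -0.020) and in 6 of 8 in males (median 0.15).

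The mesenchymal lists were mixed. Of 17 fibroblast and matrix members 7 lay above 0, with a median of -0.068 and medians within the array sets of -0.22, -0.06 and 0.06. Col1a1, collagen I, had signals of 2650, 1864 and 1978 in XXF and 1943, 1814 and 3496 in XYF. XYF array 12 stood apart there and in Ctsk, a collagen-degrading protease of osteoclasts, which had 282, 265 and 244 in XXF and 291, 251 and 856 in XYF. Dcn, a collagen-binding proteoglycan, had 3836, 4012 and 2280 in XXF and 2485, 2861 and 2113 in XYF, lower in each array set. Pericyte and smooth muscle genes lay above 0 in 7 of 9 (median 0.095), as with Pdgfrb at 1244, 1122 and 1008 in XXF and 1410, 1283 and 1070 in XYF. Fat genes lay above 0 in 3 of 10 (median -0.072). Ucp1, of brown fat, had 330, 260 and 316 in XXF and 154, 177 and 409 in XYF, with no common direction over the array sets. Skeletal muscle genes had a median of 0.03, and a summed signal of 2971 to 3137 in XXF and 2993 to 3526 in XYF. In XXM that sum reached 7951 and 14941 on arrays 6 and 10, so the male values of this list (median -0.36) rest on those arrays.

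Genes of other blood cells did not shift together. Macrophage and dendritic cell genes lay above 0 in 9 of 16 members, with a median of 0.022; the complement genes C1qa (-0.11), C1qb (-0.17) and C1qc (-0.11) and Mrc1, the mannose receptor (-0.24), were below 0 while Flt3 of dendritic cells (0.10) and Cd68 of macrophages (0.09) were above. MHC class II genes were above 0 in 7 of 9, with a median of 0.059 in females and 0.16 in males, and Ciita, their transactivator, had 804, 680.5 and 730.3 in XXF and 789.8, 835 and 818 in XYF. Among B cell genes 6 of 9 lay above 0. Cd79b, of the B cell receptor, had 808, 859 and 813 in XXF and 752, 729 and 654 in XYF, without overlap, whereas Igll1, of the surrogate light chain, had 222, 220 and 260 in XXF and 253, 287 and 285 in XYF. Igll1 lay below the olfactory receptor reference. The defining B cell markers Cd79a and Ms4a1 were under the signal limit, at means of 111 and 137. NK cell genes (3 of 6 above 0) and erythroid genes (4 of 5) had medians of -0.001 and 0.037. In the list of sphingosine-1-phosphate and egress genes 9 of 12 lay above 0; Sphk1, the kinase that makes the lipid, had 398, 425 and 415 in XXF and 459.5, 476 and 465 in XYF, without overlap, a difference of 0.18 (standard error 0.08) that did not pass in limma (adjusted p = 1.00).

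Autosomal genes tied to sex chromosome dosage were close to 0. The autosomal relatives of genes with X and Y copies had a median of -0.037 over 8 members: Kdm5a differed by 0.02, Kdm5b by -0.11 and Kdm6b by -0.03. Their sex-linked relatives on the same arrays differed more: Kdm5c, Kdm6a and Eif2s3x had log2 differences of -0.35, -0.63 and -0.71. Of 28 autosomal regulators of X inactivation and dosage 7 lay above 0, with a range of -0.14 to 0.12 and a median of -0.026. Spen, which silences genes on the inactive X, had signals of 1446, 1364 and 1443 in XXF and 1378, 1472 and 1413 in XYF. Smchd1, which keeps the inactive X silent, had 1759, 1926 and 1675 in XXF and 1886, 1772 and 1516 in XYF. Yy1, which binds the Xist locus, had 1566, 1453 and 1506 in XXF and 1367, 1420 and 1325 in XYF. The groups did not overlap for Yy1, 1 of 28, which is near the background: 1.47% of all members had every XYF array below and 1.78% every XYF array above. Msl1 and Msl2, autosomal partners of Msl3, had log2 differences of -0.003 and -0.03. None passed in limma.

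Steroid receptors lay below 0 in 4 of 5 members. Nr3c1, the glucocorticoid receptor, had signals of 1574, 1604 and 1482 in XXF and 1521, 1514 and 1290 in XYF. Esr1, an estrogen receptor, had 292, 279 and 289 in XXF and 243, 294 and 277 in XYF, below the olfactory receptor reference. Glucocorticoid response genes were above 0 in 7 of 11 (median 0.007), with medians of 0.02, -0.02 and 0.06 within the array sets. Immediate early and heat shock genes were above 0 in 9 of 16 (median 0.016), with medians of -0.09, -0.02 and 0.09 within the array sets. Such genes can move with handling, which was not tested. Circadian clock genes were above 0 in 12 of 14, with a median of 0.068 and medians of 0.001, 0.16 and 0.07 within the array sets; in males 4 of 14 were. Cholesterol synthesis genes were above 0 in 5 of 16 (median -0.038) and genes of apoptosis in selection in 5 of 12 (median -0.002). Ccn6 and Glcci1, a matricellular protein and a glucocorticoid-induced transcript, differed by 0.01 (standard error 0.10) and -0.07 (standard error 0.09).

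No chromosome stood apart from the others. The median log2 difference ran from -0.013 on chromosome 13 (543 members) to 0.012 on chromosome 7 (1252 members). The share of members above 0 ran from 43.3% to 56.5% on the same chromosomes. Between 0 and 5 members of a chromosome had an unadjusted p under 0.05.

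The male arrays gave the same contrast in the other gonadal sex. In XYM minus XXM 0 members passed in limma, with 373 at an unadjusted p under 0.05, and the difference between the contrast in females and that in males also had 0 called, with an unadjusted p under 0.05 for 75 members. Blocking on the array set left both at 0 called, and raised the unadjusted counts to 1213 and 680. All of these counts are out of 15094 members. The matching shares of all probe sets are not given, so the counts are not read as a result about the members. Across the 15094 members the log2 differences of females and males correlated at 0.28, and 59.0% had the same sign. Members share arrays and cell types, so this is a description. The median difference of all members in males was -0.017.

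Past a log2 difference of 0.5 there were 1 higher member, Ctsk, and 13 lower. The lower ones beyond those named above included Car3, a carbonic anhydrase of muscle and fat, with 994, 813 and 1004 in XXF and 198, 697 and 853 in XYF. There XYF array 4 alone was far below the others. Sfrp2, an inhibitor of Wnt signalling, had 748, 548 and 264 in XXF and 263, 301 and 220 in XYF, and Ogn, a small proteoglycan, had 469, 458 and 260 in XXF and 243, 302 and 204 in XYF. In Sfrp2 and Ogn XXF arrays 3 and 7 were again high and array 11 low. These genes were chosen by size after their values were seen. Slc15a2, a peptide transporter, ran from 48.5 to 1082 within XYF and from 326 to 1484 within XXF.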

How the data were processed

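RNA of day 7 thymic epithelium and stroma was hybridised to 12 Affymetrix whole-transcript mouse arrays. The deposited values are linear intensity summaries, 1 column for each array; in the submitters' notes the tools are PLIER and Affymetrix Expression Console 1.1, whereas the paper's methods name RMA with quantile normalization. Settings of PLIER are not given in the sources used here. Intensities were used as deposited, on the log2 scale.

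Symbols came from the platform annotation, updated by gene identifier through RefSeq: 21789 probe sets had 1 symbol, 1621 several and 12146 none. In lists the brightest probe set stood for a gene.

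Limma 3.58.1 (R 4.3.3; lmFit, eBayes) was fitted to all 12 arrays in a model of 4 genotypes, with Benjamini-Hochberg adjustment over all probe sets and a threshold of 0.05. Exact permutation of 3 against 3 arrays cannot give p below 0.10 and was not used. Members and lists were chosen with earlier results of these data known. Genes named were the 10 of lowest p per direction (5 with the array set block), up to 3 per list of highest signal and 3 of lowest p, and Ccn6, Glcci1 and Aire; other genes were named after their values were seen. Scripts were tested on simulated data. Some genes are not reported here. The number of arrays limits the precision.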

Additional observations from a re-analysis of the deposited data

Results flagged for a closer look

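Clca3b had a mean signal of 250, below the olfactory receptor reference. Its log2 difference between XYF and XXF was below 0 in all 3 array sets. The male difference was above 0, and the female difference minus the male one was -0.28. Atp1b3 was arranged the same way, with -0.33. Both were listed because the genotypes moved in opposite directions in the sexes; limma's test of that difference gave an adjusted p of 1.00 for each, so neither is shown to differ between females and males.

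On the X chromosome, outside the autosomal comparison, Msl3 (0.75), Hccs (0.67) and Tlr7 (0.70) were higher in XYF than in XXF on the log2 scale, and passed limma's threshold with the array set as a block. The cause was not tested.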

How the results depend on the processing

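No autosomal member was called between XYF and XXF under any of the 19 settings tried. The number at an unadjusted p under 0.05, 41 as reported, was 382 with the array set as a block and 385 with the block on the 6 female arrays alone, 77 after a renewed quantile normalization, 75 with array weights, 533 for the main effect of sex chromosomes in the methods' two-way model, which also uses the male arrays, and 103 with no limit on signal. It was 7 without arrays 5 to 8 and 85 without arrays 9 to 12, and ran from 19 to 121 when 1 female array was left out. It was 19 without XXF array 7, 99 without XYF array 8, 110 without XXF array 11 and 121 without XXF array 3. The cause was not tested.

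Of 28 named gene differences under 17 settings each, only Ccn6, 0.01 as reported, changed sign, to values of -0.0427, -0.0314, -0.0452, -0.0118, -0.0113 and -0.0618. With 1 array left out it ran from -0.0427 to 0.0566. Most of the 28 were named for a low p on these same arrays, so a stable sign was largely fixed by that choice. Single array sets were not among the 17 settings. Within arrays 9 to 12 Upk3b (0.03), Upk1b (0.07), Lrrn4 (0.06) and Adgrd1 (0.01) lay above 0, against their reported sign. The median of interferon-stimulated genes stayed above 0 in 21 of 21 settings (0.076 to 0.21), that of endothelial genes in 21 (0.019 to 0.26), and that of thymocyte genes below 0 in 21 (-0.17 to -0.041). That of mesothelial genes was below 0 in 20 of 21, the exception being within arrays 9 to 12. The blocked fits pair arrays by array number only, since no source ties them. Few arrays and no detection call limit what dim probe sets can show.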
